A study of Pimephales promelas with 27 samples.

Results

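The 200 probes described here are array probes whose level in cultured fathead minnow ovary stayed level between 6 and 9 h of culture and was higher at 12 h in control explants. They were chosen by measured values. Of 15208 non-control probes, 10155 were well above background on all 27 arrays, and 8426 of these varied little within groups, with a mean within-group SD under 0.6. Control means at 6 and 9 h lay within 0.2 of each other for 3558 of these, called eligible probes here, and the 200 with the largest 12 h minus 9 h difference in controls were taken. A level is the log2 processed signal of a probe minus the log2 of the 75th percentile of the non-control probes on the same array, so that a level of 0 is as bright as that percentile. All differences are on this log2 scale, where 1 is a 2-fold change.

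RNA was measured in ovary explants of Pimephales promelas, the fathead minnow, on 1-colour Agilent arrays with 1 sample per array. Explants were given DHT (dihydrotestosterone) at 1e-06 M or were controls, and were kept for 6, 9 or 12 h. There were 5 DHT and 4 control samples at 6 h, 5 DHT and 5 control samples at 9 h, and 4 DHT and 4 control samples at 12 h. All samples were female and all were pieces of ovary in culture, so that tissue not placed in culture was not measured here. Whether the explants of 1 group were taken from different fish is not stated in the labels. A p-value here therefore covers no more than the spread among these samples, and precision is limited by how many arrays there were.

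The fathead minnow is a small freshwater fish used in toxicology. An explant of its ovary holds oocytes at several stages of growth together with the granulosa and theca cells of the follicle, which make sex steroids. DHT is an androgen that is not converted to oestrogen and acts through the androgen receptor. An explant is a mixture of cells, so fewer cells of a type and less RNA per cell cannot be told apart in these values. The probes carry names of contigs or sequence records and are not paired with genes in the files used here, and 0 of the 200 matched any of 64593 entries of the reference gene table. The labelled tissue could therefore not be checked against marker genes, and probes are given by their identifiers.

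The 12 h arrays differed from the earlier ones in slide, scan day and brightness. Slides 5, 6 and 7, scanned on 2 days, held the 8 arrays of 12 h. The 19 arrays of 6 and 9 h lay on slides 1 to 4, scanned on 1 other day, and 0 slides held both 12 h and an earlier time. The 75th percentile of signal was 921 to 3418 on the 12 h arrays, against 2581 to 5709 on the earlier ones. Time and slide cannot be told apart in any comparison of 12 h with an earlier time. Arrays of both arms also resembled each other in pairs. For 11 of 13 control arrays, the deviations of the 200 probes from their group means were most like those of 1 DHT array of the same time, and the reverse held for that DHT array, at r of 0.40 to 0.66 across the probes, which are not independent. Of these 11 pairs, 6 shared a slide, and the same 11 pairs were found over the other 9818 probes that were well above background on all arrays and had no spot flagged for quality. How many such pairs unrelated arrays would give was not computed, and pairing and shared slides were not told apart. The DHT arrays are therefore not taken as an independent repeat of the control time course.

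The median level of the 200 probes was low and even up to 9 h and higher at 12 h in both arms. At 6 h the median of the probes' group means was -4.62 with DHT and -4.65 in controls, and the array medians were -5.12 to -4.33 with DHT and -4.93 to -4.39 in controls. At 9 h the median was -4.65 with DHT and -4.72 in controls, with array medians of -4.89 to -4.46 and -4.89 to -4.51 in DHT and control arrays. At 12 h it was -3.19 with DHT and -3.24 in controls, with array medians of -3.34 to -3.13 with DHT and -3.61 to -2.93 in controls. No 12 h array overlapped an earlier array in this median. The control values at 12 and 9 h chose the probes and are a description, while the DHT arrays were not used in that choice except through the limit on spread and the background flag. Over the other 3358 eligible probes, array medians were -0.59 to -0.46 at 12 h and -0.60 to -0.41 earlier, which overlapped. Levels are relative to a percentile of the same array, and these medians lay close to that point. The scaling itself therefore keeps them alike between arrays. The probes with the largest control difference were also taken out of this set. The members were much dimmer, so this overlap is no reference for them, and nothing is read from it. The median spread of a probe within a group was an SD of 0.24 with DHT (n = 4) and 0.38 in controls (n = 4) at 12 h, and 0.33 with DHT and 0.37 in controls at 9 h (n = 5 each).

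The probes were dim before 12 h. Their median level over the 6 and 9 h arrays was -4.69, a processed signal of 153, against -0.48 and 2830 for the other eligible probes. Of the 200, 138 (69.0%) had a mean earlier level between -6 and -4, where 16.4% of the other eligible probes lay. Another 45 (22.5%) lay between -4 and -2, and 5 lay below -6. Only 12 were above -2, and 2 of those were brighter than the 75th percentile of the array, where 44.7% of the other eligible probes lay. The 12 h minus 9 h difference with DHT was of like size at each of the lower levels. Its median was 1.45 for 71 probes with an earlier level below -5, 1.38 for 72 between -5 and -4, 1.39 for 45 between -4 and -2, and 1.83 for the 12 above -2.

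In controls, the 12 h minus 9 h difference that chose the probes had a median of 1.35, or 2.55-fold, and ran from 1.01 to 2.85. After normexp, with an offset of 50 added to each signal, and quantile normalization its median was 0.73. Adding such an offset makes log2 differences of dim probes smaller, and its part was not tested. The control difference is given with no test, and 11.7% of all tested probes were called higher in this contrast. The boundary was narrow. Just inside it were UF_Ppr_AF_102383, UF_Ppr_AF_104201 and UF_Ppr_AF_106551, and just outside it UF_Ppr_AF_102678, UF_Ppr_AF_109918 and UF_Ppr_AF_113847, each of the 6 at 1.01. The 12 h minus 9 h difference with DHT was 0.72, 0.64 and 1.35 for the 3 inside and 1.21, 0.73 and 1.14 for the 3 outside. Without the highest 12 h control array of each probe, the median control difference was 1.2, 49 probes were under 1, and 2 were under 0.5. Leaving out the highest array lowers the difference of every probe, and the choice ended at 1.01. That median and the 49 are therefore a description only.

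UF_Ppr_AF_103394, on contig FJU.5458.C2, was among the 8 with the largest control difference and showed the pattern with little spread. At 6 h its levels were -2.46, -2.39, -1.99, -2.16 and -3.06 with DHT and -2.32, -2.13, -2.39 and -2.59 in controls. At 9 h they were -2.58, -2.73, -2.54, -2.45 and -2.29 with DHT and -2.68, -2.43, -2.29, -2.53 and -2.67 in controls. At 12 h they were -0.51, -0.02, -0.44 and -0.36 with DHT and -0.35, -0.50, -0.09 and -0.36 in controls. All 8 arrays of 12 h lay above all 19 earlier ones, and DHT and control arrays overlapped at each time. The difference between 12 and 9 h with DHT was 2.19 (SE 0.17, limma adjusted p = 6.13e-09), or 4.55-fold.

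The largest control difference belonged to UF_Ppr_AF_114939, on contig FJU.6803.C1. Its levels at 12 h were -2.67, -2.38, -2.04 and -2.05 with DHT and -2.19, -2.98, -2.17 and -1.79 in controls. At 9 h they were -4.98, -4.90, -5.45, -5.84 and -4.81 with DHT and -5.56, -4.92, -5.13, -5.33 and -4.73 in controls. The 12 h minus 9 h difference was 2.91 with DHT and 2.85 in controls. At 6 h, DHT replicate 5 stood at -1.41, above the 12 h arrays, on a spot that the scanner software marked as non-uniform, while the other DHT arrays lay between -4.93 and -3.66. For that mark on 1 array the probe was left out of the tests.

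The next probes by control difference differed in spread. UF_Ppr_AF_109711 had 12 h levels of -0.66, -1.01, -0.62 and -0.64 with DHT, against -2.59, -3.50, -2.81, -3.31 and -2.24 at 9 h with DHT, a difference of 2.16 (SE 0.31, limma adjusted p = 2.03e-05). UF_Ppr_AF_107877, from sequence record gi_72475706, had -3.57, -3.51, -3.68 and -3.57 at 12 h with DHT, against -5.35, -6.36, -5.54, -5.20 and -5.82 at 9 h with DHT, a difference of 2.07 (SE 0.23, limma adjusted p = 6.25e-07). In both, 12 h and 9 h arrays did not overlap, and the 4 DHT arrays of 12 h lay closer together than the 5 of 9 h. The other named probes of the top 8 differed with DHT by 2.0 (UF_Ppr_AF_106694), 1.87 (UF_Ppr_AF_112143) and 2.19 (UF_Ppr_AF_104268), and each of the 3 had every 12 h array above every earlier one.

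UF_Ppr_AF_116896, from sequence record gi_73492876, had the largest tested difference with DHT. Its levels at 12 h were -3.0, -2.30, -1.93 and -2.64 with DHT and -2.93, -3.83, -2.61 and -2.84 in controls. At 9 h they were -3.82, -5.95, -5.93, -5.73 and -5.30 with DHT and -4.33, -5.26, -5.82, -6.12 and -4.86 in controls. The 9 h array of DHT replicate 1 stood well above the other DHT arrays of that time, but every DHT array of 12 h was higher still. In controls, 12 h replicate 2 stood at -3.83, just below that 9 h DHT array. The difference with DHT was 2.88 (SE 0.41, limma adjusted p = 1.86e-05), or 7.35-fold. UF_Ppr_AF_106269 followed at 2.51 (SE 0.32, limma adjusted p = 4.05e-06) and UF_Ppr_AF_116450 at 2.40 (SE 0.20, limma adjusted p = 1.48e-08).

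With DHT, the brightest and the dimmest members were also higher at 12 h than at 9 h, while the choice of probes fixed this in controls. UF_Ppr_AF_103203, on contig FJU.2843.C1, had levels of 3.12, 2.87, 2.67 and 2.45 at 12 h with DHT, against 1.94, 1.63, 1.16, 1.45 and 1.46 at 9 h with DHT. The groups did not overlap, and the difference was 1.25 (SE 0.20, limma adjusted p = 9.70e-05). UF_Ppr_AF_100955, also among the 3 brightest, differed by 1.60 with DHT (SE 0.19, limma adjusted p = 1.77e-06). UF_Ppr_AF_119046 was the brightest member, at a mean of 3.02 ± 0.23 (SD, n = 4) at 12 h with DHT and 1.79 ± 0.35 (SD, n = 5) at 9 h with DHT. It was not tested, since DHT 12 h replicate 1 had a non-uniform spot. Among the dimmest, UF_Ppr_AF_118301 differed by 1.55 with DHT (limma adjusted p = 0.000402), UF_Ppr_AF_117687 by 1.56 (limma adjusted p = 0.00112) and UF_Ppr_AF_101718 by 1.30 (limma adjusted p = 0.00168). In each of these 3 the DHT arrays of 12 h lay above those of 9 h, while the control array of 12 h replicate 2, at -5.65 to -5.53, lay within the range of earlier arrays. UF_Ppr_AF_117687 and UF_Ppr_AF_101718 lost their calls with array brightness as a covariate.

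The comparison of 12 h with 9 h in DHT explants asked whether the change seen in controls was also present with androgen. All DHT arrays of 12 h lay on slides that also held control arrays used to choose the probes. A difference between slides would therefore appear in both arms, and the counts below cannot tell time from slide. The limit on spread used the DHT groups as well, which favours calls and lack of overlap among the members. Of the 200 probes, 197 were tested, and limma called 187 higher and 0 lower. Among all 13714 tested probes, 13.0% were called higher and 3.15% lower by limma at an adjusted p under 0.05. The share called higher was 13.3% among tested eligible probes and 22.0% among tested probes that were well above background on all arrays with a mean level between -6 and -2. The members' median difference was 1.42, or 2.68-fold, with a range of 0.31 to 2.88 and a median SE of 0.25, against a median of 0.12 over all tested probes. At least a 2-fold higher level was found for 173 members and for 13.3% of all tested probes. Before adjustment, p was under 0.05 for 196 members and for 27.7% of all tested probes. In 181 of the 197, every DHT array of 12 h lay above every DHT array of 9 h, a pattern found in 12.3% of all tested probes. Of all calls by limma in this comparison 80.5% were higher, and 65.5% after quantile normalization of the arrays. With the brightness of the array as a covariate limma called 126 members, at a median of 1.16, and 736 of all tested probes higher. After background correction by normexp (offset 50) and quantile normalization it called 165 members, at a median of 0.78, and 1293 of all tested probes higher.

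The values of both arms are given side by side as a description, since the control difference chose the probes and the arrays of the arms resembled each other in pairs. Over the 200 probes the 12 h minus 9 h difference was larger with DHT in 116 and smaller in 84, and the DHT minus control gap between these differences had a median of 0.04 and a range of -0.72 to 0.88. The control mean at 12 h includes replicate 2, the only array of slide 6, which had the lowest median level of the 12 h arrays at -3.61. The 50 probes with the largest control difference had a median of 1.92 with DHT (1.13 to 2.91), against 1.89 in controls. The 50 with the smallest had a median of 1.16 with DHT (0.31 to 1.56), against 1.08 in controls. A difference over 2 was found for 23 probes with DHT and for 19 in controls, and 25 probes were under 1 with DHT, where the choice of probes left none in controls.

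The probes that did not pass with DHT were few, and some owed their place to 1 control array. The 10 tested members not called differed by 0.31 to 1.18 (limma adjusted p of 0.0570 to 0.651). UF_Ppr_AF_113855, on contig FJU.1572.C4, had levels of -2.52, -2.66, -2.97 and -2.71 at 12 h with DHT, against -3.14, -2.67, -2.61, -3.46 and -3.25 at 9 h with DHT. In controls it had 0.05, -2.73, -2.33 and -2.25 at 12 h and -3.09, -2.96, -3.0, -2.08 and -3.11 at 9 h. The groups overlapped in both arms, and control 12 h replicate 1 stood far above the rest. The difference with DHT was 0.31 (SE 0.37, limma adjusted p = 0.651), and the control difference was 1.03 with that array and 0.41 without it. UF_Ppr_AF_104201 had -1.19 on the same control array, on a non-uniform spot, and -3.47, -3.84 and -3.94 on the other 12 h controls. Its control difference was 1.01 with that array and 0.37 without it, and it was not tested. The other 2 of the 4 smallest were UF_Ppr_AF_112313 at 0.60 (SE 0.27, limma adjusted p = 0.147) and UF_Ppr_AF_105940 at 0.64 (SE 0.28, limma adjusted p = 0.122). Without DHT 9 h replicate 2, UF_Ppr_AF_105940 differed by 0.84 and passed (limma adjusted p = 0.0283).

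In DHT explants at 12 h compared with 6 h, limma called 176 of 197 members higher and 0 lower, where 9.66% of all tested probes were called higher and 1.12% lower. The median difference was 1.33, or 2.51-fold, with a range of 0.37 to 2.62, and 161 members and 10.9% of all tested probes were at least 2-fold higher. This comparison shares its 12 h arrays, and the limits given for them, with the comparison of 12 h with 9 h. In 171 of the 197, every DHT array of 12 h lay above every DHT array of 6 and 9 h, against 8.66% of all tested probes. Over both arms, every 12 h array lay above every earlier array in 126 of the 197, against 4.14% of all tested probes and 8.06% of those with a mean level between -6 and -2. That count includes the control arrays that chose the probes, so nothing is read from it.

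Between 9 and 6 h the DHT explants, which the rule on flatness did not use, gave no call. limma called 0 of 197 members, where 0.328% of all tested probes were called higher and 0.467% lower, and the smallest adjusted p was 0.284. The median difference was -0.08, with a range of -0.76 to 0.62. Before adjustment, p was under 0.05 for 1 member (0.508%) and for 14.8% of all tested probes. A 95% interval that excluded changes of 2-fold or more in both directions was found for 186 members, against 56.8% of all tested probes. The rule kept only probes of small spread within groups, DHT groups included, which favours such intervals. Nothing is read from the contrast of these shares.

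DHT was compared with control at each time to ask whether androgen changed these probes. These comparisons use the control arrays that chose the probes. At 12 h limma called 0 of 197 members and 0.0% of all tested probes. The median difference was 0.02, with a range of -0.90 to 0.60, and 8 members (4.06%) had an unadjusted p under 0.05, against 2.78% of all tested probes. The difference was above 0 in 109 members. Leaving out control 12 h replicate 1 gave a median of 0.10, with 132 members above 0, and 0.01 over all tested probes. Leaving out control 12 h replicate 2, the only array of slide 6, gave -0.10, with 59 above 0, and -0.05 over all tested probes. Without any 1 other array of 12 h the members' median was 0.00 to 0.06. The sign of this median therefore depended on single arrays. The interval excluded changes of 2-fold or more in 173 members and in 57.3% of all tested probes. At 9 h it also called 0, with a median of -0.02, a range of -0.63 to 0.53, and 1 member at an unadjusted p under 0.05, against 2.63% of all tested probes. Such intervals were found for 187 members and 62.0% of all tested probes. At 6 h it called 0, with a median of 0.02, a range of -0.46 to 0.46, and no member at an unadjusted p under 0.05, against 0.430% of all tested probes. Such intervals were found for 185 members and 65.9% of all tested probes. The limit on spread favoured such intervals among the members, so nothing is read from the contrast of these shares at any time. At 9 and 6 h, too, 0.0% of all tested probes were called. With pairs of arrays inferred from the probes that are not members as a fixed block, an alternative chosen after seeing the data, limma again called 0 members at each time. At 12 h the unadjusted p was then under 0.05 for 22 members (11.2%), against 14.8% of all tested probes. With these pairs as a random block, limma called 0 members and, at 12 h, 10 of all tested probes. The unadjusted p at 12 h was then under 0.05 for 28 members (14.2%), against 15.9% of all. The pairs were picked for their likeness over most of these same tested probes, and blocking on such pairs favours small p. The p-values, calls and shares of both block fits are therefore a description, and nothing is read from them. Among the pairs at 12 h, control replicate 2 and DHT replicate 3 lay on different slides and had an r of only 0.137. They were not a pair over the members. The main fit took no account of pairs.

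At 12 h the smallest p among members higher with DHT belonged to UF_Ppr_AF_112376 and UF_Ppr_AF_117171. UF_Ppr_AF_112376 had levels of 0.96, 1.15, 1.16 and 1.36 with DHT, against 0.39, 0.70, 0.75 and 1.12 in controls, a difference of 0.42 (SE 0.17). UF_Ppr_AF_117171 had -2.38, -2.77, -2.62 and -2.79 with DHT, against -3.03, -2.96, -2.98 and -3.13 in controls, a difference of 0.38 (SE 0.18). The groups overlapped in the first of these and not in the second. Among members lower with DHT they were UF_Ppr_AF_117342, at -0.53 (SE 0.20), and UF_Ppr_AF_100903, at -0.47 (SE 0.18). UF_Ppr_AF_100903 had -1.45, -1.82, -1.32 and -1.13 with DHT, against -0.87, -1.10, -1.06 and -0.82 in controls, which did not overlap. The limma adjusted p was 1.00 for all 4, so that none of these differences passed. Within slide 5, with 2 DHT arrays and 1 control array, the median DHT minus control difference of the 200 probes at 12 h was -0.22, and 56 were higher with DHT. Within slide 7, with 2 arrays of each arm, it was -0.05, and 83 were higher with DHT.

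The 3 slides of 12 h differed in how far the probes stood above the mean of the earlier arrays. On slide 5 (DHT replicates 1 and 2, control replicate 1) the median difference was 1.48, with all 200 above 0 and 189 at least 2-fold higher, while all tested probes had a median of 0.17. On slide 6, which held only control replicate 2, it was 0.98, with 197 above 0 and 98 at least 2-fold higher, while all tested probes had a median of 0.05. On slide 7 (replicates 3 and 4 of both arms) it was 1.34, with 200 above 0 and 175 at least 2-fold higher, while all tested probes had a median of 0.08. The share of all tested probes at least 2-fold higher was 15.8% on slide 5, 10.2% on slide 6 and 9.95% on slide 7. Compared with slides 6 and 7, slide 5 had the higher mean level in 167 of the 200 probes, with a median gap of 0.22. That comparison was not made over all tested probes, so it is a description only. Slide 5 was also scanned on a different day from slides 6 and 7. Counted by array, 176 to 183 of the 200 stood above every 6 and 9 h array on the 4 DHT arrays of 12 h, and 151 to 189 on the 4 control arrays, the lowest being that of slide 6. Each 6 or 9 h array stood above all others of those times for 0 to 41 of the probes. These counts by array were not made over all tested probes, so they are a description only. Without slide 5, an alternative chosen after seeing the data, limma called 149 of 197 members higher at 12 h than at 9 h with DHT, at a median of 1.38, where 6.81% of all tested probes were called higher.

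Array brightness moved with time as well. The 75th percentile was 921 to 1222 on slide 5, 3020 on slide 6 and 2028 to 3418 on slide 7. On the unscaled signal, the members' median was 105 to 144 on slide 5, 247 on slide 6 and 220 to 394 on slide 7, against 115 to 250 on the earlier arrays. The unscaled medians of slide 5 lay below the middle of the earlier arrays, whose median was 152, and its higher level appears only relative to its lower 75th percentile. On slide 7, 3 of 4 arrays had an unscaled median above every earlier array. The range of brightness shared by both sets held 4 arrays of 12 h, with 75th percentiles of 2819 to 3418, and 5 earlier arrays, with 2581 to 3074. There the members' median was -3.61 to -3.12 at 12 h, against -4.57 to -4.39 earlier, and 247 to 394, against 115 to 139, on the unscaled signal. Of these arrays, 2 of the 4 later and 3 of the 5 earlier ones were controls, and 4 of the earlier ones were from 6 h. Between them the median difference was 1.15, all 200 were positive (0.16 to 2.67), and all tested probes had a median of 0.02. The control arrays among them had been used to choose the probes, and the slides still differed, so these values are a description.

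The local background was 28 to 39 at 12 h, against 30.5 to 41 earlier, and the share of probes well above background was 81.2% to 87.0%, against 73.9% to 89.9%. The log2 span between a bright and a dimmer spike-in control was 8.25 to 8.71 at 12 h (median 8.56), against 8.24 to 9.06 earlier (median 8.90). The dimmer one had a signal of 87.2 to 250 at 12 h, against 171 to 883 earlier. No other spike-in control was examined, so this span does not cover dimmer signals. The control probe eQC-42 had a signal of 4.40 to 14.4 times that of the negative controls at 12 h (median 7.05), against 0.943 to 4.56 times earlier (median 1.39). Of its spots, 41 of 48 were well above background at 12 h, against 5 of 114 earlier. The part of slide, scan day, brightness and the signal of eQC-42 in the members' difference was not tested beyond these values.

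The shares of names among the members differed from those among the eligible probes, most of which were brighter. For FJU and gi they lay nearer those of all probes. Contigs with the prefix FJU made up 152 of the 200 (76.0%), against 86.7% of eligible and 78.0% of all probes. Sequence records with the prefix gi made up 47 (23.5%), against 13.0% of eligible and 21.8% of all probes. The letters rc stood in the names of 58 (29.0%), against 22.8% of eligible and 21.4% of all probes. A digit after the letters nr stood in the names of 8 (4.0%), against 12.9% of eligible and 14.2% of all probes. Identifiers that start with UF_Ppr_AM made up 1 (0.5%), against 1.94% of eligible and 4.67% of all probes. The part of brightness in these shares was not tested. The 12 h minus 9 h difference with DHT had a median of 1.41 for the FJU probes and 1.44 for the gi probes. Between 12 and 9 h with DHT, limma called 141 of 149 tested FJU members and 45 of 47 gi members higher. Over all tested probes that share was 13.0%, and it was not computed for each kind of name. The members came from 200 distinct contigs or records and were spread over the array, with 54.5% in the upper-numbered rows, against 48.7% of eligible probes, and 49.0% in the upper-numbered columns, against 50.3%.

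A second probe for the same contig or record existed for 4 members. Between 12 and 9 h with DHT, none of the 3 partners that were tested was called higher, where 13.0% of all tested probes were. With so few partners, nothing is read from this count. UF_Ppr_AF_114835, from record gi_72725601, averaged -1.32 ± 0.25 (SD, n = 4) at 12 h with DHT, against -2.95 ± 0.22 (SD, n = 5) at 9 h with DHT, a difference of 1.63 (limma adjusted p = 6.76e-06). Its partner UF_Ppr_AM_119593 was well above background on all 27 arrays and averaged -3.56 ± 1.29 (SD, n = 4) at 12 h with DHT and -2.51 ± 0.65 (SD, n = 5) at 9 h with DHT, a difference of -1.05 (SE 0.69, limma adjusted p = 0.351). The differences of these probes had opposite signs, and the partner varied widely within groups. UF_Ppr_AF_112073 was dim and averaged -3.68 ± 0.32 (SD, n = 4) at 12 h with DHT and -4.79 ± 0.63 (SD, n = 5) at 9 h with DHT. It differed by 1.1 (limma adjusted p = 0.0118). Its partner UF_Ppr_AM_120345, with group means of 1.91 to 2.12, differed by -0.15 (SE 0.12, limma adjusted p = 0.442). The partner of UF_Ppr_AF_117171, itself at 1.65 with DHT, was well above background on 3 arrays and was not tested. UF_Ppr_AM_120069 differed by 0.76 (limma adjusted p = 0.167), and its partner, well above background on 9 arrays, by 0.63 (limma adjusted p = 0.620). Levels of different probes are not set against each other, and a difference between probes of 1 contig was not tested.

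The membership depended on the values that the rule was applied to. With quantile normalization of the processed signal, 165 of the 200 were chosen again (82.5%), and with the authors' deposited log2 values 165. With the background corrected by normexp (offset 50) before quantile normalization, it was 110 (55.0%). With the DHT groups in place of the control groups, 86 were chosen again (43.0%), where 132 of the 200 met the limits on spread and flatness in those groups, and the last probe chosen differed by 1.24. Without slide 5, 179 were chosen again (89.5%).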

How the data were processed

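RNA of 27 ovary explant samples was measured on 7 slides scanned on 3 days. The authors' scanner output, made with Agilent Feature Extraction 10.7.1.1 per the file headers, holds a processed and a median intensity for each spot on a linear scale. Per the file headers, other columns mark with 0 or 1 whether a spot was saturated, non-uniform or well above background. The authors also deposited a table of log2 values with no stated normalization, each column of which followed the log2 processed signal of its array (lowest r 0.9979, across probes), with column medians of 8.21 to 8.30.

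The arrays held 15744 spots, 536 of them controls, and no saturated non-control probe. Left untested were 169 probes marked as a non-uniform or population outlier on at least 1 array and 1333 well above background on fewer than 4 arrays, with some in both sets, which leaves 13714. In R 4.3.3, limma 3.58.1 fitted a group-means model of the 6 groups, with Benjamini-Hochberg adjustment over these probes and 0.05 as the limit on adjusted p. The fit was tried on simulated levels with independent errors for each array. That simulation held no pairs and no slides, so it does not show the error rate in these data. Confidence intervals cover 95%.

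The members, named probes and gene lists were chosen with earlier results of these data known. Named are the 8 largest control differences, the 4 largest and 4 smallest with DHT, 3 probes either side of the limit, the 3 brightest and 3 dimmest, and the 2 smallest p in each direction for DHT at 12 h. Probes sharing a contig with a second probe were named after seeing the files. The gene and marker lists could not be used, because no file used here links a probe to a gene. Alternatives were normexp on the median signal (offset 50; the files used here hold no mean signal), quantile normalization, deposited values, filters, brightness as a covariate, slide as a random block, only the arrays compared, leaving out arrays and, added after seeing the data, leaving out slide 5 and taking inferred pairs of arrays as a block.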

Additional observations from a re-analysis of the deposited data

Results flagged for a closer look

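Of 162 groups of 4 or 5 arrays over the named probes, 14 held an array far from the others of its group by Dixon's test, where chance gives about 1 in 20. With DHT, UF_Ppr_AF_109711 stood at -1.01 on 12 h replicate 2, against -0.66 to -0.62 on the others, and UF_Ppr_AF_106694 at -2.69 on 12 h replicate 1, against -3.05 to -3.01. UF_Ppr_AF_107877 stood at -6.22 on DHT 6 h replicate 5 (others -5.52 to -5.30) and at -5.36 on control 6 h replicate 3 (others -6.0 to -5.91). UF_Ppr_AF_100955 stood at 1.54 on DHT 12 h replicate 4 (others 1.32 to 1.36) and at -0.0525 on control 6 h replicate 1 (others -0.61 to -0.56). UF_Ppr_AF_118301 stood at -6.90 on DHT 9 h replicate 3 (others -6.18 to -6.09), and UF_Ppr_AF_112313 at -5.49 on DHT 6 h replicate 5 (others -4.66 to -4.33). Control 9 h replicate 4 stood at 0.75 for UF_Ppr_AF_103203 (others 1.68 to 1.94) and at -2.08 for UF_Ppr_AF_113855 (others -3.11 to -2.96). UF_Ppr_AF_104201 held 4 such arrays, at -3.90 on DHT 6 h replicate 2 (others -4.57 to -4.43), -4.74 on DHT 9 h replicate 3 (others -4.11 to -3.85), -2.87 on DHT 12 h replicate 1 (others -3.74 to -3.62) and -1.19 on control 12 h replicate 1 (others -3.94 to -3.47).

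A signal outside the measured probes was found in the control probe eQC-42. Of its spots on 12 h arrays, 41 of 48 were well above background, against 5 of 114 on the earlier arrays. Its signal over that of the negative controls was 4.40 to 14.4 at 12 h, against 0.943 to 4.56 earlier. The same ratio for eQC-39, eQC-40 and eQC-41 did not stand apart at 12 h, and for eQC-40 its median was lower at 12 h.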

How the results depend on the processing

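The scale of the members' difference depended on the processing. The offset of 50 in normexp makes log2 differences of dim probes smaller, and its part was not tested. With DHT, the median 12 h minus 9 h difference was 1.42, and became 1.09 with quantile normalization, 1.08 with the deposited values, 0.78 with normexp and 1.16 with brightness as a covariate. Over all tested probes the median was 0.12 in the first case, and -0.02, 0.00, -0.02 and 0.05 in the others. In controls the members' median was 1.35, and 1.03 with quantile normalization, 1.01 with the deposited values and 0.73 with normexp. Leaving out 1 array gave 1.37 to 1.46 with DHT and 1.23 to 1.5 in controls. The rule chose 110 of the 200 again after normexp and 86 with the DHT groups. The share of higher among all 12 h against 9 h calls with DHT was 80.5%, and 65.5% with quantile normalization, 63.9% with normexp and 67.0% with the deposited values.

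Between 12 and 9 h with DHT, limma called 187 members, where 1782 of all tested probes were called higher. With brightness as a covariate it called 126 (736 of all), with the deposited values 160 (1216) and with normexp 165 (1293). It called 161 (1188) with quantile normalization and 183 (1459) with slide as a random block (correlation within slides 0.136). With only the arrays compared it called 178 (1477), and without slide 5 149 (934). With no filter on dim probes, but still without the probes marked as outliers, it called 186 (1769 of 15039). With probes well above background on all arrays it called 187 (1339 of 10015). Without 1 array it called 176 to 188. Between 12 and 6 h it called 176, where 1325 of all tested probes were called higher. It called 128 to 177 under these settings, where 639 to 1312 of all were called higher, and 160 to 174 without 1 array. None of these settings called a member between 9 and 6 h or between DHT and control. Of 26 named probes tested, 22 were called, 17 of them in every alternative run. UF_Ppr_AF_102383 lost its call in 7 of these settings and without any of DHT 12 h replicates 1, 2 and 3 and DHT 9 h replicates 1, 3, 4 and 5. UF_Ppr_AF_101718 and UF_Ppr_AF_117687 lost theirs with brightness as a covariate, UF_Ppr_AF_106551 with that and without slide 5, and UF_Ppr_AF_102678 in 3 settings. UF_Ppr_AF_109918 gained one without DHT 9 h replicate 2 (1.03, limma adjusted p = 0.0287). UF_Ppr_AF_113855, not called, reversed to -0.45 with brightness as a covariate. The cause of these changes was not tested.

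No paired analysis was possible because the labels give no replicate numbers, and the columns name no pairs. Pairs inferred from the same arrays, 12 in all over the probes that are not members, were tried after seeing the data as a fixed block and as a random block (consensus correlation 0.636). limma called 0 members between DHT and control at each time under both. Of all tested probes, 1 was called at 6 h with the fixed block, and 2 at 6 h and 10 at 12 h with the random block. An unadjusted p under 0.05 was found with the fixed block for 4, 13 and 22 members at 6, 9 and 12 h (456, 1645 and 2032 of all tested probes). With the random block it was 8, 22 and 28 members (515, 1871 and 2179 of all). Picking pairs by likeness in the same data favours small p, so these counts are a description only. A fixed slide block cannot be estimated between 12 h and earlier times. Dim signals limit these values, since the members' median signal before 12 h was 153.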
